A study of Sus scrofa with 64 samples.

Results

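The ileum, the last stretch of the small intestine, was measured on 4 of 64 arrays, 1 from each of 4 pigs, and these 4 arrays were set against the 60 arrays of the other 15 tissues. Membership was set by the sample titles. Messenger RNA was hybridised to Affymetrix porcine arrays, and the levels below are RMA values on a log2 scale, on which 1 unit is a doubling of signal. The animals were a Large White male of 38.8 kg and a Large White female of 36.2 kg, both aged 87 days, and an Iberian female of 32.8 kg and an Iberian male of 25.4 kg, both aged 89 days. All 4 were kept together on the same feed. The sample is described as epithelium in the account of the study. The comparisons were with the mean of the other 15 tissues, and singly with stomach (epithelium), whole blood and liver. Each breed and each sex is represented by 2 animals and each combination by 1. Where 4 values are listed for a gene, they stand in the order Large White male, Large White female, Iberian female, Iberian male.

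The ileum takes back bile acids and absorbs what remains of sugars, peptides, fats and vitamin B12 through enterocytes, whose brush border carries digestive enzymes and transporters. Goblet cells between them make mucus, and enteroendocrine cells release hormones. Its wall holds Peyer's patches, in which B cell follicles are surrounded by T cells and recruited by chemokines of the stroma. The epithelium is renewed from dividing cells of the crypts, and germinal centres divide as well, so genes of the cell cycle are carried by more than 1 kind of cell in this organ. The 32 lists of genes used here are accordingly grouped as epithelial, lymphoid, dividing and other, and 453 of their genes had a named probe.

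The ileum arrays were alike and apart from all others. Their distance to each other, 1 minus the squared correlation over probes, was 0.0232 to 0.0433. The nearest array of another tissue was for all 4 the stomach of the Iberian female, at 0.1367 to 0.1652. This stomach array stood apart from the other 3 stomach arrays, with the crypt gene OLFM4 at 11.45 against 2.78, 2.82 and 3.14, and the proton pump subunit ATP4A at 7.51 against 12.74, 12.61 and 12.81. Where leaving it out changed a call against stomach that is given for a named gene, both values are given. Medians of the ileum arrays lay between 5.46 and 5.49, and no array of the series had a median above 5.52.

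Against the mean of the other 15 tissues, 5594 of 23935 probes (23.4%) were higher in ileum and 7057 (29.5%) were lower at an adjusted p under 0.05 from limma. By at least 1 log2 unit, 1899 were higher and 1757 lower, and by at least 2 units 694 and 272. Among the 6567 genes with a symbol, each read from its brightest probe, 2272 (34.6%) were higher and 1896 (28.9%) lower, with a median difference of 0.02 log2 units. Against stomach 1639 of these genes (25.0%) were higher and 1327 (20.2%) lower, against blood 3235 (49.3%) and 1789 (27.2%), and against liver 2276 (34.7%) and 1594 (24.3%). On 528 probes (2.21%) all 4 ileum arrays lay above every other array, and on 42 (0.175%) below. The same was true of 247 genes (3.76%) above and 18 (0.274%) below. Of these 247 genes, 50 are in the lists of dividing cells, 21 in the lymphoid lists, 18 in the epithelial lists, 0 in the other lists and 158 in none.

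The 3 groups differed in how evenly their members moved. Of 114 epithelial genes 66 (57.9%) were higher and 20 lower, with a median of 1.51 log2 units, in lists that also hold genes of stomach, liver and endocrine glands. Of 76 lymphoid genes 67 (88.2%) were higher and 2 lower, with a median of 2.33. Of 165 genes of dividing cells 146 (88.5%) were higher and 3 lower, with a median of 0.71, and 62 of them are ribosomal protein genes with a median of 0.44. A whole-tissue RNA sample does not tell a larger number of cells of a type from more RNA in each of them.

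**Figure D1:**
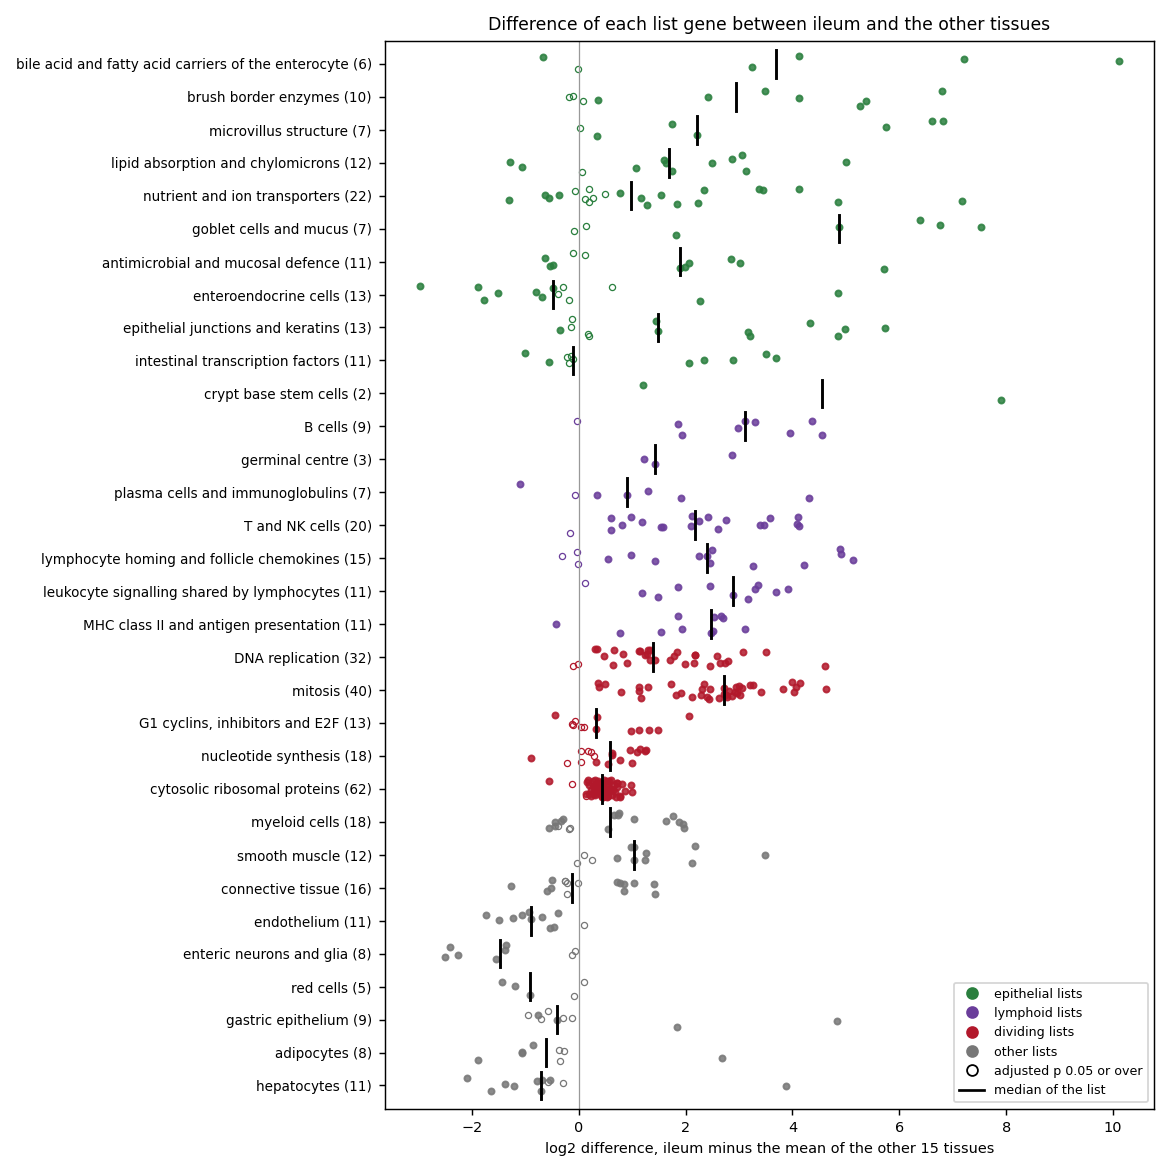
Difference in level between ileum and the mean of the other 15 tissues (log2 units) for every gene of the lists, 1 point per gene, grouped by list. Filled points have an adjusted p under 0.05 from limma, and the black line is the median of the list, which is 2.72 for the 40 genes of mitosis and 3.69 for the 6 carriers of bile acids and fatty acids.

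FABP6, the cytosolic bile acid carrier of ileal enterocytes, gave the largest difference of any list gene. It stood at 13.72, 12.97, 13.06 and 13.44 on the ileum arrays, against 2.58 to 4.78 on the other 60. The difference was 10.12 ± 0.13 log2 units (SE, adjusted p = 1.3e-49). A gap of 8.19 units separated the lowest ileum array from the highest array of any other tissue, and the Iberian female stomach was at 3.05. The intestinal retinol carrier RBP2 was also above every other array, at 7.39, 7.25, 5.92 and 7.33, against 3.12 to 4.90 (3.24 ± 0.15, adjusted p = 3.9e-25). The liver type fatty acid carrier FABP1 was shared with liver. It was at 11.22, 11.77, 9.50 and 10.78 in ileum, against 10.96 to 11.69 in liver, and this difference of -0.48 did not pass.

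The intestinal fatty acid carrier FABP2 split the 4 animals. It stood at 8.01, 3.01, 7.44 and 8.56 in ileum and at 2.27 to 3.06 elsewhere, so the Large White female lay within the range of the other tissues and the other 3 animals far above it. Its mean difference was 4.13 ± 0.32 (adjusted p = 2.2e-16). In the same animal FABP6 was at 12.97 and FABP1 at 11.77, the highest FABP1 value of the 4. The 6 carriers counted 4 higher, 1 neither and 1 lower, which was DBI, an acyl-CoA binding protein of most tissues (-0.67).

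Digestive enzymes of the brush border were mostly higher. Of 10 genes 7 were higher and none lower, and 5 lay above every other array. Aminopeptidase N (ANPEP) was at 12.31, 11.86, 12.10 and 12.53, against at most 10.54 elsewhere and a mean of 10.46 in thyroid gland, the next tissue (5.27 ± 0.19, adjusted p = 3.4e-29). Aminopeptidase A (ENPEP) differed by 6.79 ± 0.31, the dipeptidase DPEP1 by 5.37 ± 0.22, and AMN, which anchors the receptor for vitamin B12 bound to intrinsic factor, by 4.13 ± 0.17. Dipeptidyl peptidase 4 (DPP4) was lower than in liver, at 10.80, 8.15, 9.50 and 10.90 in ileum, against a liver mean of 11.48 (-1.65 ± 0.35, adjusted p = 7.6e-05). ACE, GGT1 and TMPRSS15 did not pass by their brightest probes, with differences of -0.18, 0.07 and -0.11, though another probe of GGT1 did (1.77, adjusted p = 6.1e-16). The meprin subunit MEP1B was read from a probe that lay at 3.65 to 3.98, whereas its 2 other probes lay at 8.71 to 10.45 and 6.98 to 8.82 in ileum, against at most 3.35 and 3.77 elsewhere.

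By their brightest probes 6 of the 7 genes of the microvillus were higher than in the mean of the other tissues. Only VIL1 and CDH17 passed in this way as higher against stomach. PDZK1 lay at 0.02 by its brightest probe and was higher by its other probe (5.74, adjusted p = 4.9e-39). Of all 9 probes of these genes 7 were higher than the mean of the other tissues and 3 higher than stomach. Villin (VIL1), which bundles actin in the microvillus core, averaged 10.46 ± 0.54 in ileum (SD, n = 4) with the Large White male highest at 11.22, against 6.73, 6.07, 9.51 and 4.48 in the stomach of the same animals. Without the Iberian female stomach the difference was 4.71, against 3.77 with it. The liver-intestine cadherin CDH17 was at 10.69, 10.31, 9.30 and 10.33, with no other array above 6.71. Galectin-4 (LGALS4), a lectin of the apical membrane, was at 12.05, 11.86, 11.15 and 12.20 and its difference from stomach did not pass with all arrays (0.45, adjusted p = 0.13). Without the Iberian female stomach, at 12.48, it passed (0.85 ± 0.21, adjusted p = 0.00083).

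Transporters of sugars, peptides and amino acids included some of the clearest ileal genes. The sodium-glucose transporter SLC5A1 was at 11.54, 10.40, 10.46 and 11.64, against 2.97 to 7.14 elsewhere (7.17 ± 0.18, adjusted p = 7.7e-37). SLC7A9 (cystine, 4.86 ± 0.20), SLC1A1 (glutamate, 4.13 ± 0.25) and SLC26A3 (chloride and bicarbonate, 3.37 ± 0.11) also had all 4 ileum arrays on top. Of the 4 other probes of SLC1A1, 2 were higher (2.16 and 0.69) and 2 did not pass (-0.06 and -0.03). The peptide transporter SLC15A1 was at 9.40, 7.31, 7.08 and 8.61, and its highest array outside ileum was the Iberian female stomach at 8.25, without which no other array exceeded 6.18. Of the 22 transporters 12 were higher, 4 lower and 6 neither, with a median difference of 0.97, and without the Large White female ileum array 2 were lower. SLC34A2 (phosphate, -0.64), SLC46A1 (folate, -0.55) and SLC11A2 (iron, -0.37) were lower. SLC3A1, the partner of SLC7A9, was lower by its brighter probe (-1.31) and higher by its other probe (2.68, adjusted p = 1.9e-18).

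Genes of fat absorption were shared with liver. Apolipoprotein B (APOB), the backbone of chylomicrons and of hepatic lipoproteins, was at 9.05, 7.61, 7.99 and 9.27 in ileum, against 12.08 to 12.44 in liver and 2.56 to 3.01 in stomach. APOA4, an apolipoprotein of chylomicrons, was at 9.12, 5.32, 6.66 and 7.91 in ileum, against a mean of 12.09 in liver. MTTP, which loads lipid onto APOB, was at 8.74, 7.35, 7.45 and 8.37, with a liver mean of 10.20. The 12 genes of this list counted 9 higher and 2 lower against the mean of the other tissues, 10 higher and 1 lower against stomach, and 0 higher and 11 lower against liver. The males held the higher level of APOB, APOA4 and MTTP in every pairing of a male with a female.

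Of the goblet cell genes 4 lay above every array of the other tissues. Trefoil factor 3 (TFF3), secreted with mucus, was at 11.44, 11.67, 10.71 and 12.20, against 4.40 to 6.83 (6.38 ± 0.15, adjusted p = 6.1e-38). REG4, a secreted lectin, was at 10.51, 11.16, 8.95 and 10.70, against at most 4.91 (6.76 ± 0.15). The secreted protein CLCA1 was at 11.39, 11.72, 10.86 and 11.74, against 4.81 to 5.55 in 3 stomachs and 9.38 in that of the Iberian female. The mucus protein FCGBP differed by 4.88 ± 0.16. Of the 7 genes of the list 5 were higher and none lower, and the membrane mucin MUC1 (-0.09) and the protease inhibitor SPINK4 (0.13) did not pass by their brightest probes. The other probe of SPINK4 was higher (6.42 ± 0.28, adjusted p = 2.6e-26) and that of MUC1 lower (-0.68). The Iberian female had the lowest value of TFF3, REG4, CLCA1, FCGBP and the transcription factor KLF4.

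Of 11 genes of mucosal defence 6 (54.5%) were higher and 3 (27.3%) lower, compared with 34.6% and 28.9% of all genes. The lower count thus lay near that of all genes, and 1 was lower when the Large White male ileum array was left out. Against stomach 4 were higher and 1 lower, with a median of 0.05, and against blood 5 and 5, with a median of -0.09. None of the 11 genes lay above all 60 other arrays. The polymeric immunoglobulin receptor PIGR, which carries IgA across the epithelium, was at 9.95, 10.74, 10.07 and 10.68. In stomach it was at 6.05, 5.58, 11.37 and 6.96, so the difference of 2.87 became 4.17 without the Iberian female stomach, and PIGR then lay above every other array, of which the highest was at 7.01. DMBT1, a secreted scavenger protein, was at 7.84, 9.32, 6.16 and 7.96, against at most 6.45 elsewhere (3.01 ± 0.19). The peroxide-forming oxidase DUOX2 ranged from 5.52 to 8.73 in ileum, below the thyroid gland at 10.69. In the Large White female 7 of these 11 genes had their highest ileal value, compared with 1312 of all 6567 genes.

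Among hormones, proglucagon (GCG), the precursor of the incretin GLP-1, was at 9.81, 10.06, 7.45 and 9.38, against 3.72 to 5.25 elsewhere (4.85 ± 0.17, adjusted p = 1.1e-29). It was the 1 gene of 13 enteroendocrine genes above every other array. Somatostatin (SST) was also higher, by 2.27 ± 0.38, and was lower than in stomach with all arrays (-1.60, adjusted p = 0.013). Without the Iberian female stomach, at 11.19, that difference did not pass (-1.07, adjusted p = 0.12). General granule genes were lower than in the mean of the other tissues, which include hypophysis, adrenal and brain: CHGB by -2.98, SCG3 by -1.89 and SCG2 by -1.78. The list as a whole counted 2 genes higher and 7 lower.

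Epithelial keratins and junctions were high in ileum but shared with stomach and thyroid gland. The mean level of their list was 8.15, 8.0, 7.56 and 8.16 on the ileum arrays. It was 7.65 to 8.41 in stomach and 8.05 to 8.25 in thyroid gland. The adhesion molecule EPCAM was at 11.86, 11.93, 11.34 and 11.72 in ileum, against 11.13 to 12.06 in stomach (0.22, adjusted p = 0.67). Keratin 19 (KRT19) differed by 5.73 ± 0.23 from the mean of the other tissues and by 0.93 from stomach, and the tight junction gene OCLN was 2.47 below stomach. Of 13 such genes 8 were higher and 1 lower against the other tissues, and 3 higher and 4 lower against stomach, or 4 and 4 without the Iberian female stomach. Of 11 transcription factors of the gut 5 (45.5%) were higher, 2 (18.2%) lower and 4 neither, with a median of -0.11. Over all genes 34.6% were higher and 28.9% lower. The 5 higher ones were HNF4A (3.70 ± 0.14), ELF3 (3.51 ± 0.20), NR5A2 (2.88 ± 0.16), GATA6 (2.35 ± 0.17) and FOXA1 (2.06 ± 0.17). Against stomach 2 of the 11 were higher and 6 lower, with a median of -1.19, and against liver 1 and 7, with a median of -0.56. GATA4, a regulator of proximal gut and stomach, was at 3.64 to 3.82 and 4.55 units below stomach. The crypt genes OLFM4 (11.11, 11.21, 10.27 and 11.09) and ASCL2 (3.86 to 4.42, against at most 3.95 elsewhere) were both higher. OLFM4 differed from stomach by 5.87 with all arrays and by 8.0 ± 0.19 without the Iberian female stomach.

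**Figure D2:**
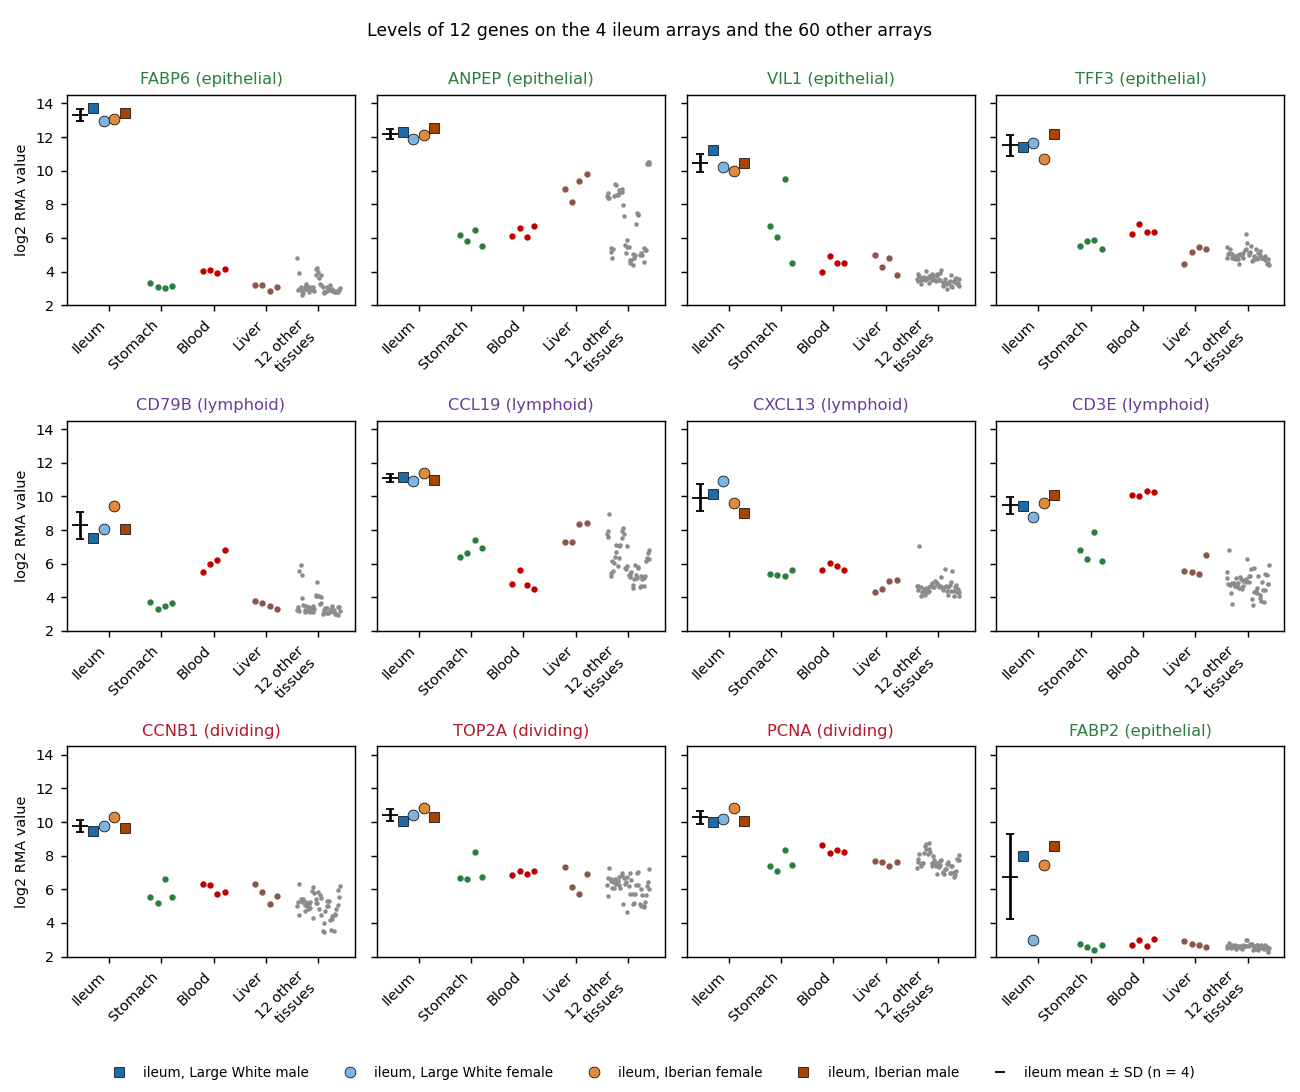
Level (log2 RMA value, vertical axis) of 12 genes on each array, with ileum at the left by animal and its mean ± SD over 4 arrays, then stomach, blood, liver and the other 12 tissues. FABP6 lies at 12.97 to 13.72 in ileum with no other array above 4.78, CD3E overlaps with blood, and 1 stomach array (9.51) approaches the ileum for VIL1.

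Most B cell genes were higher in ileum than in blood and in stomach. CD79B, a chain of the B cell receptor complex, was at 7.53, 8.07, 9.42 and 8.07, against 5.49 to 6.82 in blood and 3.32 to 3.72 in stomach. It differed by 4.56 ± 0.25 from the mean of the other tissues (adjusted p = 8.7e-22) and by 2.15 from blood (adjusted p = 3.4e-07). The Iberian female was highest and the Large White male lowest, and all 4 lay above every other array. SPIB, a transcription factor of B cells and also of M cells of the gut epithelium, was at 7.84, 8.49, 8.57 and 8.08, against at most 7.04. The adaptor BLNK (3.96 ± 0.24), the costimulatory receptor CD40 (2.98 ± 0.18) and SWAP70 (1.94 ± 0.11) were likewise above every other array. Of 9 B cell genes 8 were higher than the other tissues and none lower, and 8 were higher and 1 lower than stomach. Against blood 7 (77.8%) were higher, compared with 49.3% of all genes, and 2 were lower, the ectoenzyme CD38 (-0.70) and POU2F2, a factor for immunoglobulin transcription (-1.11). POU2F2 was also lower than stomach (-0.46) and did not pass against the mean of the other tissues (-0.04).

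All 3 measured genes of germinal centres were higher, and EZH2, a histone methyltransferase also needed in other dividing cells, was at 8.21, 8.67, 9.16 and 8.56, against at most 6.60. Genes of plasma cells were not generally higher than in stomach. The joining chain JCHAIN, which links IgA and IgM units, was at 10.75, 10.87, 10.69 and 10.60 in ileum, and its difference of 4.31 ± 0.38 from the mean of the other tissues shrank to 1.01 against stomach (adjusted p = 0.13). The stomach of the Iberian female was at 10.88 and the other 3 at 9.19 to 9.44, and without it JCHAIN passed (1.41 ± 0.55, adjusted p = 0.039). Of 7 genes 5 were higher and 1 lower than the other tissues, and 1 higher (2 without the Iberian female stomach) and 4 lower than stomach, among them the secretory regulator XBP1 (-1.10), which gastric gland cells also use.

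T and NK cell genes were high in ileum and in blood. CD3E, a chain of the T cell receptor complex, was at 9.40, 8.80, 9.60 and 10.07 in ileum, against 10.02 to 10.35 in blood (-0.73, adjusted p = 0.033). It differed by 4.10 ± 0.23 from the mean of the other tissues. CD3G was the exception within the complex, at 8.53, 8.37, 8.54 and 8.95 in ileum with no other array above 8.30 (0.62 against blood, adjusted p = 0.039). Of 20 genes 19 were higher against the mean of the other tissues and 1, the perforin gene PRF1 (-0.16), was neither. Against blood 1 was higher and 11 lower. The serine protease GZMH (-1.41), the NK receptor KLRK1 (-1.81) and the transcription factor GATA3 (-1.95) were the lowest of these against blood.

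Chemokines that place lymphocytes in the gut wall were among the most distinct immune genes. CXCL13, which draws B cells into follicles, was at 10.16, 10.89, 9.59 and 9.0, against 4.06 to 7.06 (5.14 ± 0.22, adjusted p = 4.4e-26). CCL19, a T zone chemokine, was at 11.17, 10.89, 11.39 and 10.98, against 4.48 to 8.94 (4.91 ± 0.19). CCL25, made by small intestinal epithelium, was at 9.76, 8.37, 8.49 and 10.17, against at most 5.27 (4.89 ± 0.15). Its receptor CCR9 was at 7.07 to 8.17, close to blood (0.46, adjusted p = 0.034), a difference that turned to -0.02 after quantile normalization. MADCAM1, the vessel ligand for gut-homing lymphocytes, and the interferon-induced chemokine CXCL9 were above every other array, with differences of 2.50 ± 0.16 and 4.22 ± 0.49 from the mean of the other tissues. CXCL9 reached 9.96 on another array, against 10.13 to 10.46 in ileum. CCL28, another mucosal chemokine, was higher than the mean of the other tissues (1.43) and 2.61 units below stomach. Of the 15 genes of this list 12 were higher and none lower, while the integrin gene ITGB7 and the receptor gene CCR7 lay at -0.03 and -0.01.

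Genes of antigen presentation by MHC class II were high. Their median SD over the 4 animals was 0.19, close to the 0.20 of all genes. SLA-DRA was at 11.84, 11.81, 11.59 and 11.73, against at most 10.54 on any other array (2.52 ± 0.31, adjusted p = 1.1e-09). SLA-DRB1, SLA-DQA1, SLA-DQB1 and the invariant chain CD74 differed by 2.48 to 2.70, though the 2 other probes of SLA-DRB1, both dim, did not pass (-0.12 and 0.08). Of 11 genes 10 were higher and 8 lay above every other array. SLA-DMA, whose product loads peptides, was lower by its brighter probe (-0.43) and higher by the other (2.39, adjusted p = 3.6e-13). The class II genes are near-identical copies in part, and probes may read more than 1 of them. Of 11 signalling genes common to leukocytes 10 were higher, with a median of 2.88, but against blood 1 was higher and 5 lower.

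By their brightest probes all 40 genes of mitosis were higher in ileum than in the mean of the other 15 tissues, with a median of 2.72, and 25 of them lay above every other array. Of all 49 probes of these genes 47 were higher, 1 lower and 1 neither. CCNB1, the cyclin that triggers mitosis, was at 9.47, 9.74, 10.30 and 9.66, against 3.45 to 6.60 (4.63 ± 0.24, adjusted p = 6.3e-23). TOP2A, which untangles chromosomes, was at 10.07, 10.43, 10.86 and 10.33, against at most 8.24 (4.14 ± 0.27). CCNB2 (4.06 ± 0.22), DLGAP5 (4.03 ± 0.19) and BIRC5 (3.99 ± 0.17) followed. UBE2C, a ubiquitin carrier of the anaphase complex, had 8.36 in the Large White female and up to 9.55 in blood, and so overlapped. The smallest differences were those of KIF20A (0.36), FOXM1 (0.37) and BUB3 (0.49).

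Of 32 genes of DNA replication 30 were higher, none lower and 16 above every other array. The sliding clamp PCNA averaged 10.28 ± 0.39 in ileum (SD, n = 4) with the Iberian female highest at 10.85, against 6.76 to 8.77 elsewhere (2.65 ± 0.13, adjusted p = 1.8e-24). RRM2, the regulated subunit of ribonucleotide reductase, was at 9.01, 9.11, 9.67 and 8.93, against at most 6.83 (4.61 ± 0.23). The origin protein ORC1 differed by 3.51 ± 0.14, the histone chaperone ASF1B by 3.08 ± 0.13 and MCM2, a subunit of the replicative helicase, by 2.73 ± 0.16. A dimmer probe of ASF1B (-0.09) and 1 of the 2 dimmer probes of MCM2 (0.03) did not pass. MCM4 and SLBP did not pass by their brightest probes (-0.10 and -0.01), though the second MCM4 probe did (1.62, adjusted p = 1e-15).

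Genes of G1 and of nucleotide supply moved less. Of 13 G1 genes 7 were higher and 1 lower, with a median of 0.32. Among them were MYC (2.06 ± 0.23), the G1 cyclin CCND2 (1.13 ± 0.24) and CCNA2 (1.49 ± 0.09), a cyclin of S phase and G2 that this list of cyclins also holds. The lower one was the inhibitor CDKN1B (-0.45), which no longer passed without the ileum array of the Large White female, the Iberian female or the Iberian male. Of 18 genes of nucleotide synthesis 11 were higher, with MTHFD2 (1.25 ± 0.16), CMPK1 (1.24 ± 0.14) and CTPS1 (1.09 ± 0.14) among them. PPAT, the first enzyme of purine synthesis, was lower (-0.89), with its highest level in liver. Of 62 cytosolic ribosomal protein genes 58 were higher by a median of 0.44, and 8 lay above every other array. RPL8 was at 12.52 ± 0.07 in ileum, against 11.65 ± 0.47 in the other tissues (SD, n = 4 and 60 arrays).

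Markers of other cells in the wall differed from the mean of the other tissues to different degrees. Smooth muscle genes, which muscle layers, vessel walls and myofibroblasts express, had 9 of 12 members higher than the mean of the other tissues and 0 higher and 2 lower than stomach (1 and 2 without the Iberian female stomach). Their mean level was 9.02, 8.28, 8.11 and 8.76 on the ileum arrays, and calponin (CNN1) was at 9.61 ± 0.63. Of all 21 probes of the smooth muscle genes 12 were higher, 3 lower and 6 neither, and against stomach 0 were higher and 4 lower. The actin gene ACTG2 differed from the mean of the other tissues by 1.03 by its brightest probe and by 6.06 ± 0.55 by its other probe (adjusted p = 9.4e-14). Of 16 connective tissue genes 7 (43.8%) were higher and 4 (25.0%) lower, and of 18 myeloid genes 10 (55.6%) were higher and 5 (27.8%) lower. Over all genes these shares were 34.6% and 28.9%, so the connective tissue counts and the lower myeloid count lay near them. Among the myeloid genes C1QC (1.95) was up and the neutrophil genes S100A8 and S100A9 lay at 3.45 and 3.17. Without the Large White male ileum array 4 connective tissue genes were higher and 2 myeloid genes lower, and without that of the Iberian male 2 myeloid genes were lower. Endothelial genes (0 higher, 10 lower of 11), genes of enteric neurons and glia (0 higher, 6 lower of 8) and red cell genes (0 higher, 3 lower of 5) were not raised. Of 9 gastric genes all were lower than in stomach, and 2 were higher than the mean of the other tissues, the trefoil factor TFF2 at 8.69 ± 0.52 and the intrinsic factor gene GIF at 5.26 ± 1.47. Of 11 hepatocyte genes 8 were lower (5 without the Iberian male ileum array) and 1 higher, the urea cycle enzyme CPS1 at 7.96 ± 0.69, which enterocytes also make. The part of muscle or other wall cells in the lists above was not tested.

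How far the 3 groups differed depended on the tissue they were set against. Against stomach 54 of 114 epithelial genes (47.4%) were higher and 23 (20.2%) lower. Of 76 lymphoid genes 59 (77.6%) were higher and 8 (10.5%) lower. Of 165 genes of dividing cells 97 (58.8%) were higher and 2 (1.21%) lower. Over all genes these shares were 25.0% and 20.2%. The medians of the 3 groups were 0.39, 1.82 and 0.40, with -0.00 over all genes, so the epithelial and dividing medians were nearly equal. Without the Iberian female stomach the counts were 57 and 23, 60 and 8, and 97 and 2. Against blood 70 epithelial genes (61.4%) were higher and 30 (26.3%) lower, and 121 dividing genes (73.3%) higher and 16 (9.7%) lower. The lymphoid counts against blood were 36 (47.4%) higher and 23 (30.3%) lower, near the 49.3% and 27.2% of all genes. The epithelial, lymphoid and dividing medians there were 1.70, 0.39 and 0.66, with 0.38 over all genes, so the lymphoid median lay next to that of all genes. Against liver the counts in the same order were 47 (41.2%) and 35 (30.7%), 63 (82.9%) and 4 (5.26%), and 139 (84.2%) and 8 (4.85%). Over all genes 34.7% were higher and 24.3% lower than liver. The medians against liver were 0.17, 2.11 and 1.01, with 0.08 over all genes. The mitosis list kept its direction in all 3: 38 of 40 genes were higher than stomach, 32 than blood and 39 than liver, with medians of 2.54, 1.77 and 2.51.

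**Figure D3:**
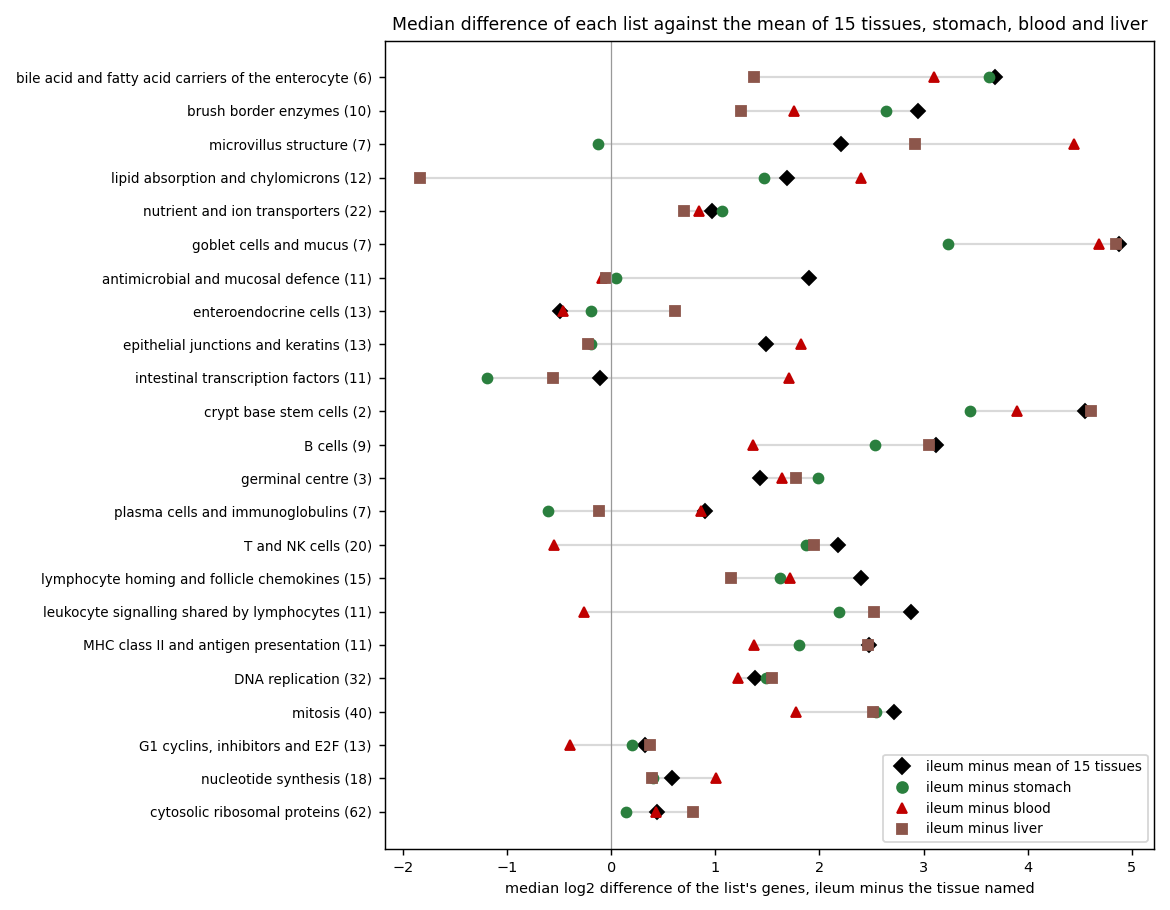
Median difference of each epithelial, lymphoid and dividing list (log2 units, horizontal axis) between ileum and the mean of the other 15 tissues, stomach, blood and liver. T and NK cell genes lie at 2.18 against the mean of the others and -0.55 against blood, and genes of lipid absorption at 1.69 against the mean of the others and -1.84 against liver.

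Many of the most distinct genes belonged to none of the lists. SPAI-2, a secreted protease inhibitor named for its action on the sodium pump, was at 12.69, 12.38, 12.77 and 12.50, against 2.94 to 5.17 (9.12 ± 0.15, adjusted p = 1.1e-45). The elastase inhibitor PI3 (elafin) was at 10.94, 11.38, 9.86 and 11.46, against at most 4.67 (7.41 ± 0.14). SPAI-2 had the largest difference of the named genes after FABP6, and OLFM4, CLCA1 and PI3 came next. The galectin LGALS2 (6.69 ± 0.12), the protease ADAMDEC1 of gut macrophages (6.61 ± 0.33), the complement receptor CR1 (5.80 ± 0.30) and the collagenase MMP1 (5.5 ± 0.13) were above every other array as well. So were the ubiquitin-like modifier UBD (5.26 ± 0.39) and the PCNA-associated factor PCLAF (4.94 ± 0.30). The oestrogen sulfotransferase SULT1E1 was at 7.99 to 9.95 on the ileum arrays, and at a mean of 9.72 in liver.

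Among the genes lowest in ileum and in none of the lists, CDO1, which oxidises cysteine, was at 3.15 to 3.78, against a liver mean of 9.43 (-4.28 ± 0.30). The actin-associated gene FAM107A differed by -3.65 ± 0.19 and the cyclase QPCT by -3.41 ± 0.27 by its brightest probe, with its other 2 probes at -0.23 and -0.15. The scaffold gene HOMER2 was at 4.94, 4.09, 5.00 and 5.11, against 5.67 to 11.19, and was thus below every other array. APOD (-3.20 ± 0.27), malic enzyme ME1 (-3.19 ± 0.15) and angiotensinogen AGT (-3.13 ± 0.33) were also among the lowest.

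Of the 3 groups the epithelial genes differed most among the 4 ileum arrays. The SD over the 4 arrays had a median of 0.41 for epithelial genes, 0.29 for lymphoid and 0.19 for dividing genes, and 0.20 for all 6567. Within the dividing genes it was 0.07 for the 62 ribosomal protein genes, 0.34 for DNA replication and 0.29 for mitosis. For smooth muscle it was 0.43 and for adipocyte genes 0.50. The Iberian female was the lowest of the 4 for 59 of 114 epithelial genes and for 11 of 13 junction genes, compared with 1614 of all 6567. It was also the lowest for 8 of 12 smooth muscle genes and 9 of 16 connective tissue genes, whose part in the epithelial values was not tested. In this animal 19 epithelial genes (16.7%) were at least 1 unit below the mean of the other 3 arrays, against 114 of all genes (1.74%). The same array was the highest for 35 of 40 mitosis genes, 27 of 32 replication genes, 7 of 9 B cell genes and 3 of 3 germinal centre genes, compared with 2206 of all genes. The mean mitosis level was 7.93, 8.06, 8.50 and 8.02 and the mean B cell level 7.53, 7.89, 8.36 and 7.83.

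In the Iberian male 8 of 10 brush border enzymes and 11 of 20 T and NK cell genes had their highest value, compared with 1958 of all 6567 genes. In the Large White female 6 brush border enzymes and 14 T and NK cell genes had their lowest, compared with 1685 of all genes. The mean level of lipid absorption genes was 8.47, 7.36, 7.53 and 8.30. Smooth muscle genes were highest in the Large White male for 11 of 12, compared with 1091 of all genes. Each of these values is that of 1 array of 1 animal, so no test applies, and animal, dissection and array cannot be told apart.

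**Figure D4:**
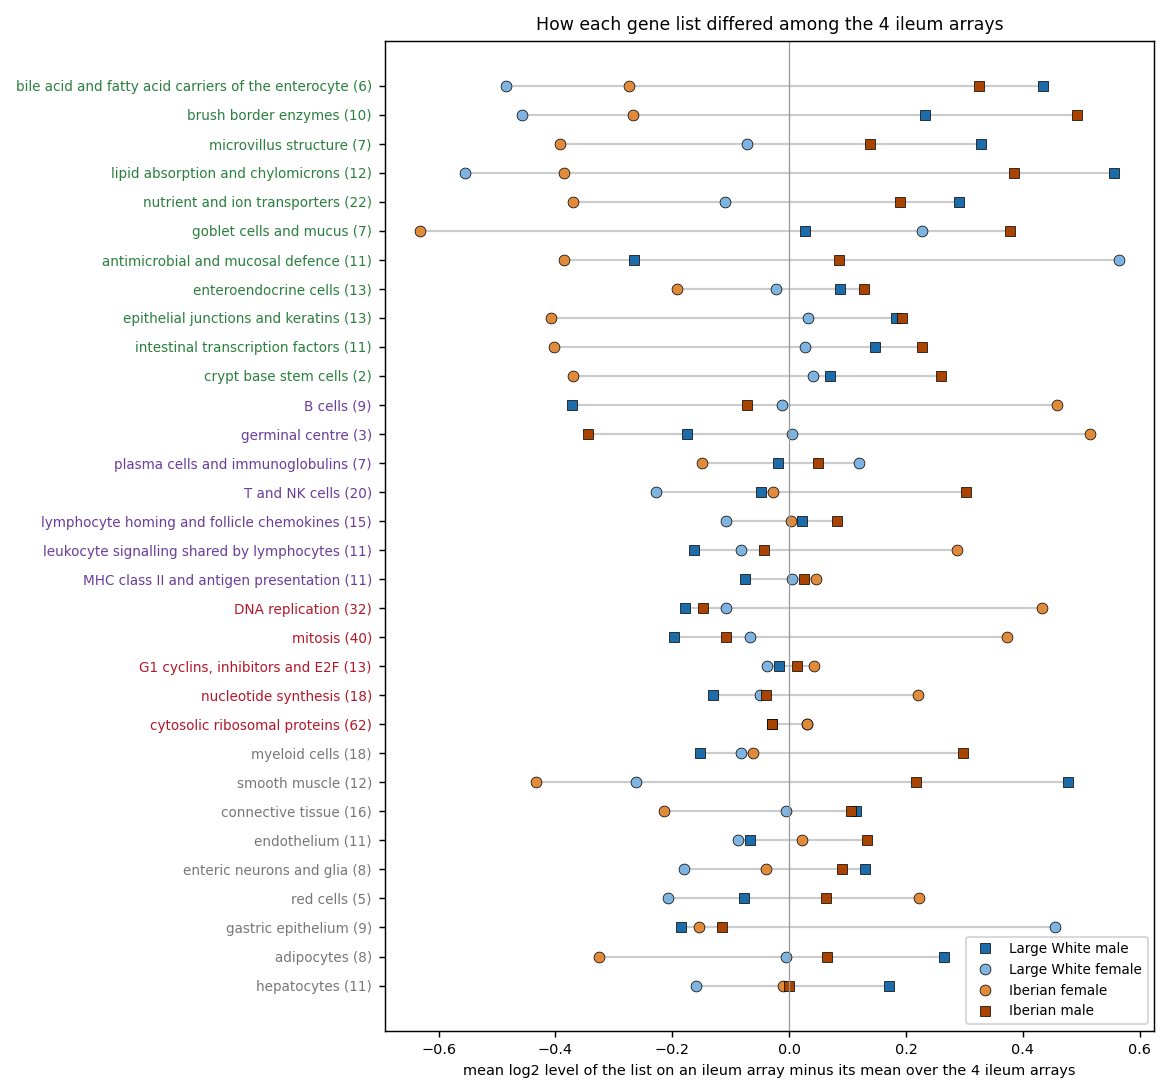
Mean level of each list on each ileum array minus its mean over the 4 ileum arrays (log2 units), by animal. The Iberian female lies above the others for mitosis (8.50 against 7.93 to 8.06) and below them for goblet cells (8.29 against 8.95 to 9.30).

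Whether ileum differed from the other tissues by an unequal amount between the breeds or the sexes was tested with an interaction term. For breed, the difference of ileum minus the other tissues was higher in Large White on 70 probes (0.292%) and in Iberian animals on 78 (0.326%). For sex, it was higher in males on 38 probes (0.159%) and in females on 4 (0.0167%). This difference is signed, so where ileum lay below the other tissues, a higher value can be a smaller gap. These p-values take arrays as replicates, while each breed and sex has 2 animals, and the breed counts fell to 11 and 3 without the ileum array of the Large White female. The count with a higher signed difference in males was 16 without the array of the Iberian female.

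Of the 21 named probes with a higher signed difference in males, 12 belonged to 11 list genes, which also include MEP1B, MTTP, PDZK1, NR1I2, SLC28A1 and CPS1. The terms of MEP1B, PDZK1 and NR1I2 came from probes other than their brightest. FABP2 (3.02 ± 0.55, adjusted p = 0.0051), APOA4 (2.61 ± 0.42, adjusted p = 0.0012), SLC15A1 (1.88 ± 0.38, adjusted p = 0.014) and AMN (1.58 ± 0.28, adjusted p = 0.0045) had the largest terms of the list genes. For FABP2 the Iberian female, at 7.44, lay near the males at 8.01 and 8.56, while the Large White female was at 3.01. CCL25 had a term of 1.51 ± 0.22 (adjusted p = 0.00015). Outside the lists GUCA2A, the precursor of guanylin, was at 8.93, 8.51, 7.44 and 9.70 (1.32 ± 0.26), and it was chosen after its values were seen. The 2 named probes with a higher signed difference in females were those of NPM2 and the kinetochore gene SPC25, which was at 4.20, 5.18, 5.17 and 4.22.

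For breed the largest list member was the water channel AQP8, at 7.27, 7.77, 6.27 and 4.06 (2.40 ± 0.35, adjusted p = 0.00049), in which the 2 Iberian animals also differed from each other. GCG (1.48 ± 0.30) and DMBT1 (1.49 ± 0.35) were higher in Large White, with the Iberian female lowest and the Iberian male within or near the Large White range. Outside the lists the blood group transferase ABO was at 6.13, 5.71, 3.21 and 3.0 in ileum (2.61 ± 0.22, adjusted p = 1.2e-09), so both animals of each breed stood together. ABO was chosen after its values were seen. A probe of B2M was higher in Large White (1.83 ± 0.25) and another lower (-1.49 ± 0.36), so probes of 1 gene went opposite ways.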

How the data were processed

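Messenger RNA of 16 tissues from 4 pigs was hybridised to 64 Affymetrix porcine arrays, 1 per animal and tissue. The authors generated signals with GCOS, checked the arrays with the Affy package and normalized all of them together by RMA with libaffy (versions not given in the sources used here), and the deposited values are log2 values after RMA. RMA removes background, sets all arrays to 1 distribution and summarises each probe set, so values have no true zero and low levels are compressed. Arrays carry no read depth, so precision is limited by their number. Of 24123 probe sets 188 controls were left out, and 0 columns lacked a sample.

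Probes were named from the annotation of the platform, parts of which may be outdated: 10069 probes had 1 symbol, 198 several and 13668 none, and 9961 were found in the RefSeq table of Sscrofa11.1, which changed 0 symbols. Probes with several symbols or a LOC number were not named, which left 9774 probes of 6567 genes. A gene was read from the probe with the highest mean over all arrays, and where another probe of a named gene was called the other way, or where a gene given as not passing had a probe that passed, it is given as well. Some known genes of ileum had no named probe and are not analysed here.

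Each contrast came from 1 limma fit (limma 3.58.1, R 4.3.3) to 64 arrays with tissue, breed and sex as terms (46 residual degrees of freedom), with Benjamini-Hochberg adjustment over 23935 probes and a threshold of 0.05. Differences are ileum minus the other tissue ± SE, and breed and sex terms are Large White minus Iberian and male minus female. P-values measure the spread between these arrays. Every tissue came from the same 4 animals, so the arrays were paired by design: deviations from tissue means correlated by 0.145 on average over 60 pairs of ileum and another tissue of 1 animal (50 over 0.1) and by -0.048 over 180 pairs of different animals. With 50 of 23935 simulated probes each shifted by 0.5, 1, 2 and -1 log2 units in the contrast of ileum against the other tissues, limma recovered 50%, 94%, 100% and 94%, with 11 false calls. The simulated probes had 1 mean for all tissues and independent normal noise, with no animal effect. Those 11 calls therefore do not give the error rate in the real arrays, which were paired. Python 3.11.15, pandas 2.3.3, numpy 2.4.6 and matplotlib 3.10.9 were used for counts and figures.

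The comparison, the members and the gene lists were chosen with earlier results of these data known. The genes named were, by rule, FABP6, CCNB1 and CD79B, the defining genes of each list, the 3 highest and 2 lowest further called genes of each epithelial, lymphoid and dividing list, and the 12 highest and 8 lowest genes outside the lists. Other genes named, among them all members given as not passing, genes given against 1 tissue, the further members of a list and those with a breed or sex term, were chosen after their values were seen. Alternatives were the animal as a fixed or random block, differences within animals, median centring, quantile normalization, the natural logarithm, brighter probes, a limit on size, leaving out tissues or single arrays, and 1 probe per gene. Counts of probes higher and lower than the mean of the other tissues, and above and below every other array, without the Iberian female stomach were added after seeing the data.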

Additional observations from a re-analysis of the deposited data

Results flagged for a closer look

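Among the genes named by rule, the difference between ileum and the other tissues was larger in the males than in the females by the interaction term in 7: FABP2 by 3.02 log2 units, APOA4 by 2.61, SLC15A1 by 1.88, AMN by 1.58, CCL25 by 1.51, CPS1 by 1.17 and MTTP by 1.12. In 2 of them it was larger in Large White than in Iberian animals, DMBT1 by 1.49 and GCG by 1.48. Genes outside that rule had larger breed terms, among them AQP8 (2.40) and ABO (2.61). These terms take arrays as replicates and rest on 2 animals of each kind. For FABP2 the Iberian female, at 7.44, lay near the males at 8.01 and 8.56, while the Large White female was at 3.01.

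For 9 of 198 genes examined (4.55%), 1 of the 4 ileum arrays lay far from the other 3, with a gap to its nearest neighbour that, as a share of the whole range, exceeded Dixon's 95% critical value for 4 samples. Chance marks about 1 in 20 groups in this way, which is about as many as were found. The Iberian female was low for RBP2 (5.92), KLF4 (7.10), KRT19 (10.25), NR5A2 (6.61) and OLFM4 (10.27). The Large White male was high for E2F3 (4.93) and for the albumin gene ALB (4.66) and low for FAM107A (3.69), and the Large White female was low for HOMER2 (4.09).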

How the results depend on the processing

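With the animal as a replicate block, 5621 probes (fixed block) or 5582 (random block) were higher and 7101 or 7041 lower than in the mean of the other tissues, against 5594 and 7057 without it, and the block moved no count of calls by more than 1.5 times. Of 11504 recomputed values of named genes 11195 kept their direction and side of the threshold, 228 no longer passed, 79 newly passed and 2 changed sign, both against blood after quantile normalization: CCR9 to -0.02 and PECAM1 to -0.52. Of 168 recomputed counts 134 stayed within 1.5 times.

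A limit of at least 1 log2 unit gave 1899 probes higher and 1757 lower than the mean of the other tissues, 1659 and 1417 than stomach, 4128 and 3894 than blood, and 2654 and 2139 than liver. Among the probes above the median level, lower counts were 3778, 2781 (stomach), 2282 (blood) and 2886 (liver), and 285 probes lay above every other array. Within the animals 2747 probes were lower than stomach. A gap of over 0.5 units left 236 probes above and 4 below every other array, and without blood these were 811 and 139. With 1 probe per gene 2.63% of lymphoid (1.72% of probes) and 1.82% of dividing genes (3.69%) were lower. The cause of these changes was not tested.

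Without 1 array in turn, 5095 to 5641 probes were higher and 5979 to 7177 lower than the mean of the other tissues (1 ileum array or the Iberian female stomach left out; 5651 and 7210 without the Large White male's pineal array), 3630 to 4233 and 3564 to 4620 than stomach, 7313 to 7729 and 9191 to 9495 than blood, and 5423 to 5561 and 4669 to 4895 than liver. Above every other array lay 560 to 653 probes, and below it 50 to 72. For breed, 11 to 64 probes had a higher signed difference in Large White and 3 to 55 in Iberian animals. For sex the counts were 16 to 42 in males and 1 to 17 in females. The breed and sex counts thus rest on single arrays.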
